A study of Mus musculus with 28 samples.

Results

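Female and male kidneys of wild-type mice were compared over the autosomal genes, with 5 libraries labelled Female WT set against 5 labelled Male WT. The 10 libraries were taken by the genotype and sex in their titles from the 28 of the series, and 16622 of the 48071 autosomal genes counted passed the filter on low counts and were tested. The series was made to study aquaporin-3 (Aqp3), a water and glycerol channel of the collecting duct, and it also holds kidneys from mice whose Aqp3 carries an acetylation mimetic (Q) or a deacetylation mimetic (R). The WT mice carry neither mimetic and no other allele or treatment is named for them. Mice of all groups had free access to pelleted chow and water under equal hours of light and dark, and their decapsulated kidneys were snap-frozen after euthanasia between ZT 2 and 5, the early light phase. Strain and age are not given in the sources used here, nor is it stated that each library is a separate animal, so the p-values below measure the spread between libraries, which may in part be technical.

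The proximal tubule, made up of the segments S1, S2 and S3, takes back most of the filtered glucose, amino acids, phosphate and bicarbonate, and it secretes organic anions and cations that were conjugated or oxidised by its own enzymes. The thick ascending limb, the distal convoluted tubule and the collecting duct follow it and adjust salt, calcium, acid and water. In rodents the kidney is among the tissues with large sex differences in gene expression, and the proximal tubule, which carries androgen receptor, is the segment best known for them. Androgen-induced genes of the mouse kidney such as Kap and Odc1 have long served as its markers.

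The libraries held 14825417 to 19916030 counts in the Female WT group and 16332363 to 21403804 counts in the Male WT group. Levels are given as CPM, counts scaled to a common library size,, fold changes as log2 of Female WT over Male WT, means ± SD are over 5 libraries a group (n = 5), and a number alone in parentheses after levels is the log2 fold change. A gene was called at an adjusted p under 0.05 in edgeR's quasi-likelihood test with Benjamini-Hochberg adjustment over all tested genes of the table, and every gene said to rise or fall, or given with a fold change and no adjusted p, was called. One library stood apart. Xist, the transcript of the inactive X chromosome, was at 0.515 CPM in Female WT library 2, against 282 to 300.2 CPM in the other 4 Female WT libraries and 0.470 to 1.59 CPM in the Male WT libraries. The 4 Y-linked genes Ddx3y, Eif2s3y, Kdm5d and Uty summed to 0.468 CPM in that library and to 0.853 to 1.23 CPM in the other Female WT libraries, against 130.4 to 162 CPM in the Male WT libraries. Of the 670 autosomal genes called at 2-fold or more without it, the library lay nearer to the other females for 87.6%, within the range of 78.7% to 93.2% that the 10 libraries gave when each was left out in turn. Results were therefore computed with and without it. Of the 169 genes described below that were called, 159 were called without it, with a median absolute change of the log2 difference of 0.05, and 153 were called whichever 1 of the 10 WT libraries was left out. The spread of all 28 libraries entered the test, and Male Q library 4 and Female Q library 5 stood apart among them, with 7.74% and 3.94% of their counts in mitochondrially encoded genes against 9.56% to 12.1% in the other 26. Without them 1926 autosomal genes were called higher and 2263 lower between the WT groups. Aqp3 itself was at 93.4 to 132 CPM in the Female WT libraries and at 93.5 to 137 CPM in the Male WT libraries.

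Sex differences reached 16.9% of the tested autosomal genes, 2807 in all. Of these, 1408 (8.47%) were higher and 1399 (8.42%) were lower in Female WT kidneys, and the median over all tested autosomal genes was 0.03 on the log2 scale. Without Female WT library 2 the test called 2276 genes, of which 2210 were among the 2807 with the same sign. Scaling by upper quartiles, which moved that median to 0.08, called 1837 genes higher and 1165 lower. Among the calls, 373 were at least 2-fold higher and 336 at least 2-fold lower, 25 were at least 16-fold higher and 38 at least 16-fold lower. The libraries of the groups did not overlap for 17.5% of the tested genes, with 7.35% entirely higher and 10.2% entirely lower in Female WT kidneys. The genes called lower had the larger summed level, to which a few abundant genes can add much. Together they took 131283 to 145955 CPM in the Female WT libraries, against 222742 to 241847 CPM in the Male WT libraries. The genes called higher took 64747 to 68449 CPM in the Female WT libraries and 37508 to 41562 CPM in the Male WT libraries. Every autosome carried calls, between 14.8% of the tested genes on chromosome 12 and 21.7% on chromosome 13.

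**Figure D1:**
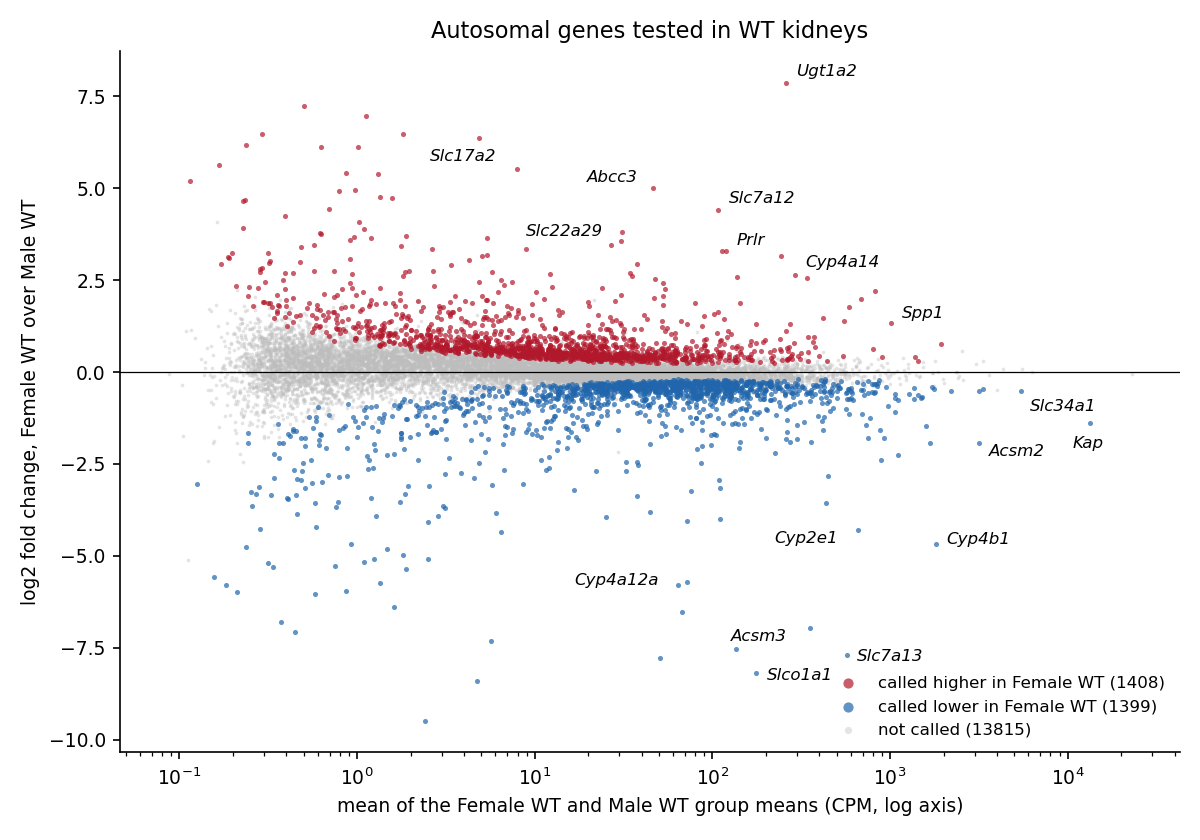
Log2 fold change of Female WT over Male WT kidneys against the mean of the group means in CPM (log axis) for the 16622 tested autosomal genes, 1 point a gene, coloured by the edgeR call. The 1408 genes called higher in Female WT reach 7.87 at Ugt1a2, and abundant genes such as Cyp4b1, Acsm2 and Kap lie below 0.

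Kap, the androgen-regulated kidney protein of the mouse, was named after its values were seen. It had 7049, 5069.9, 9932, 7795 and 6929 CPM in Female WT libraries 1 to 5, against 18646, 19016, 19235, 21775 and 17422 CPM in Male WT libraries 1 to 5. The groups did not overlap, and the difference was -1.39 on the log2 scale (SE 0.249, adjusted p = 0.000156). Odc1, ornithine decarboxylase, which makes putrescine, had 433, 419.7, 418, 442 and 475 CPM in Female WT libraries 1 to 5, against 1817, 1498, 1246, 1065 and 909 CPM in Male WT libraries 1 to 5. Its log2 difference was -1.58 (adjusted p = 3.37e-06), with the lowest male library still above the highest female one.

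Organic anions and cations enter the proximal tubule cell through the Slc22 family, and 13 of its 23 tested members were called, 6 higher and 7 lower in Female WT kidneys, against 16.9% of all tested autosomal genes. Slc22a6, the organic anion transporter OAT1 of the blood side, had 469.9, 268, 479, 348 and 398 CPM in Female WT libraries 1 to 5, against 1141, 984, 1103, 1126 and 986 CPM in Male WT libraries 1 to 5. All 5 Female WT libraries lay below all 5 Male WT libraries, with a log2 difference of -1.44 (SE 0.158, adjusted p = 3.99e-08). Slc22a12, the urate exchanger URAT1 of the luminal side, averaged 679 ± 99.9 CPM in Female WT and 1447 ± 45.3 CPM in Male WT kidneys (log2 difference -1.09, adjusted p = 8.04e-09). Slc22a2, the organic cation transporter OCT2, and Slc22a22, a prostaglandin-selective member, fell by 1.0 and 1.58 in the same direction. Slc22a8, the organic anion transporter OAT3, which works beside OAT1, was not called, with 571 ± 35.9 CPM in Female WT and 451 ± 42 CPM in Male WT kidneys (log2 difference 0.34, 95% interval 0.08 to 0.60, adjusted p = 0.0782). Slc22a19, an organic anion exchanger of S3, rose and had 245, 221, 411, 183 and 197 CPM in Female WT libraries 1 to 5, against 108, 124, 119, 80.9 and 74.3 CPM in Male WT libraries 1 to 5. Female WT library 3 was the highest, and the groups did not overlap (log2 difference 1.31, adjusted p = 4.93e-05). Slc22a13, a nicotinate and urate carrier, rose by 0.86.

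Within this family 3 members that follow one another on chromosome 19 went in opposite directions. Slc22a28, Slc22a29 and Slc22a30 belong to the organic anion branch, and their promoters are shown because the middle gene was higher and its neighbours on both sides were lower in Female WT kidneys. The sequences are from RefSeq on GRCm38.p6, read on the minus strand from 250 bases before to 50 after the annotated start, at chr19:8131933-8132232, chr19:8218851-8219150 and chr19:8405056-8405355. Capitals mark the longest run of bases common to all 3, which is 22 bases long.
Slc22a28: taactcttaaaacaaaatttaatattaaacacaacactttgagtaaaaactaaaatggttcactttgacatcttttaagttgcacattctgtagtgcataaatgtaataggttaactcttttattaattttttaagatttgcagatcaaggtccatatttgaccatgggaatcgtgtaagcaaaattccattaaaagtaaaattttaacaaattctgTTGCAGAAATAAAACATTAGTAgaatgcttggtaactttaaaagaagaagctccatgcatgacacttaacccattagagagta
Slc22a29: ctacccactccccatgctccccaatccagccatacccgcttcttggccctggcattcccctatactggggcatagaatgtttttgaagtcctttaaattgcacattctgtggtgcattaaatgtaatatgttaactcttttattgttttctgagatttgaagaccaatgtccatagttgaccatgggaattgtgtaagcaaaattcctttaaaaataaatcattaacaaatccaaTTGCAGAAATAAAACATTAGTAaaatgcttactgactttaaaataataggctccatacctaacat
Slc22a30: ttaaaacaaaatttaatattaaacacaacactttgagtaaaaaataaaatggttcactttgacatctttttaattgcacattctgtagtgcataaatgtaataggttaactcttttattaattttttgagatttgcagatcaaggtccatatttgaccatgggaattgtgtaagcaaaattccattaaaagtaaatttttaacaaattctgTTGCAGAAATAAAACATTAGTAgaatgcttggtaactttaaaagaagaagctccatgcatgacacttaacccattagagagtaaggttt
Over the 300 bases, the promoters of Slc22a28 and Slc22a30 shared 96.0% of their letters in a global alignment, while that of Slc22a29 shared 72.3% with Slc22a28 and 71.7% with Slc22a30. The other 25 pairs among the 8 tested neighbours of this run shared 48.3% to 65.7%. Slc22a29 had 48.4, 52.5, 58.6, 67.6 and 60.3 CPM in Female WT libraries 1 to 5, against 3.12, 5.6, 5.08, 3.46 and 3.29 CPM in Male WT libraries 1 to 5. Slc22a28 had 21.9, 24.6, 37.5, 20.6 and 20.8 CPM in Female WT libraries 1 to 5, against 185, 192, 213, 195 and 175 CPM in Male WT libraries 1 to 5. Slc22a30 had 11.4, 7.77, 25.2, 10.8 and 10.2 CPM in Female WT libraries 1 to 5, against 235, 186, 211, 208 and 193 CPM in Male WT libraries 1 to 5. The groups did not overlap for any of them, and the log2 differences were 3.80, -2.94 and -3.98 (adjusted p = 4.24e-16, 1.06e-14 and 9.75e-12). Their transcripts are alike too: 28.7% of the 50-base words of Slc22a29, 53.9% of Slc22a28 and 34.2% of Slc22a30 also stand in transcripts of other genes in GENCODE M21, so part of their counts may have been lost or assigned to a relative.

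The Slco organic anion transporters had 5 of 8 tested members called (62.5%, against 16.9% of all tested genes), 2 higher and 3 lower. Slco1a1, which carries bile acids and steroid conjugates, had 1.26, 0.889, 0.996, 1.76 and 1.15 CPM in Female WT libraries 1 to 5, against 455, 371, 303, 393 and 239 CPM in Male WT libraries 1 to 5. Its log2 difference was -8.19 (adjusted p = 6.73e-16). Slco3a1, a carrier of prostaglandins and thyroid hormone, had 59.8, 48.8, 72.3, 58.7 and 62.6 CPM in Female WT libraries 1 to 5, against 255, 216, 210.2, 236 and 216 CPM in Male WT libraries 1 to 5, a difference of -1.91 with no overlap. Slco4c1, a carrier of the blood side, fell by 1.75, whereas Slco2a1, the prostaglandin transporter, and Slco4a1 rose by 0.68 and 1.0.

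Of the 38 tested members of the ATP-binding cassette family, which holds the efflux pumps, 18.4% were called, near the 16.9% of all tested genes, with 5 higher and 2 lower, or 1 lower without Female WT library 2 or Male WT library 4. Abcc3, the glucuronide exporter MRP3, had 109, 65.2, 161, 58.4 and 56.4 CPM in Female WT libraries 1 to 5, against 2.72, 4.31, 3.05, 1.77 and 2.17 CPM in Male WT libraries 1 to 5 (log2 difference 5.00, adjusted p = 6.04e-13). Abcc4, the luminal exporter MRP4, averaged 102 ± 20.4 CPM in Female WT and 41.1 ± 10.1 CPM in Male WT kidneys, and the P-glycoproteins Abcb1a and Abcb1b rose by 1.54 and 1.80. Abcc1, the exporter MRP1, rose by 0.70, and Abcc9, a regulatory subunit of ATP-sensitive potassium channels, fell by 0.70.

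**Figure D2:**
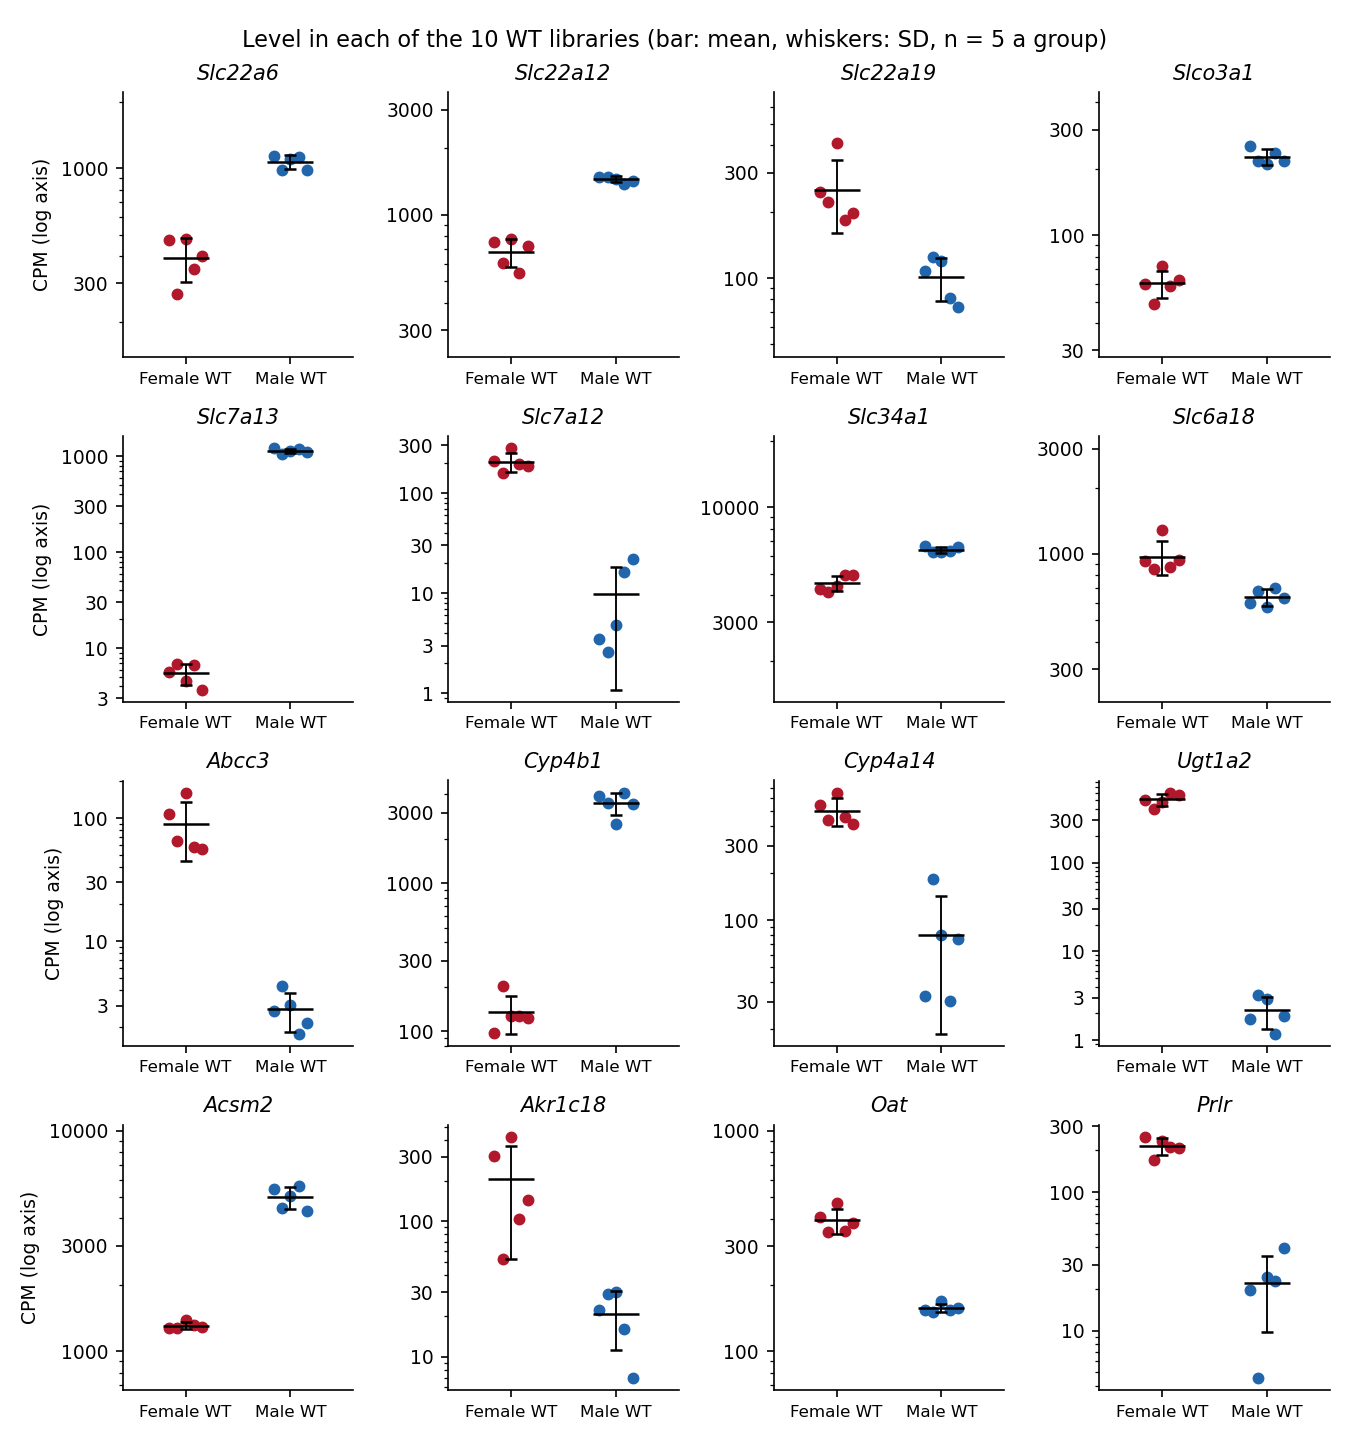
CPM (log axis) of 16 transporters, enzymes and a receptor in the 5 Female WT libraries (left in each panel) and the 5 Male WT libraries (right), with bars for the mean and whiskers for the SD. The groups are apart in every panel, with log2 differences from -7.69 in Slc7a13 to 7.87 in Ugt1a2, and the difference nearest to 0 among the genes shown is -0.50 in Slc34a1.

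Amino acid carriers were called in 10 of 21 tested members (47.6%, against 16.9% of all tested genes), 7 higher and 3 lower in Female WT kidneys. The extremes were 2 light chains of one family. Slc7a13, the cystine, aspartate and glutamate exchanger of S3, had 5.6, 6.93, 4.58, 6.73 and 3.71 CPM in Female WT libraries 1 to 5, against 1209.6, 1049, 1125, 1188 and 1106 CPM in Male WT libraries 1 to 5. Slc7a12, a neutral amino acid exchanger that is its close relative, had 207, 159.8, 279.97, 193 and 188 CPM in Female WT libraries 1 to 5, against 3.47, 2.6, 4.79, 16.2 and 21.7 CPM in Male WT libraries 1 to 5. The first fell by 7.69 and the second rose by 4.41 (adjusted p = 3.9e-23 and 3.74e-06), and Male WT libraries 4 and 5 held several times more Slc7a12 than the other 3 males. Smaller rises were found for Slc6a18, a luminal carrier of glycine and alanine, with 973 ± 174 CPM in Female WT and 636 ± 55.6 CPM in Male WT kidneys (0.61), for Slc7a8, a blood-side neutral amino acid exchanger (0.58), and for Slc7a9, the luminal cystine transporter (0.50). Slc36a1, a proton-coupled carrier of small amino acids, fell by 0.74.

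Sugar and carboxylate carriers leaned the same way, with 8 of 21 tested members higher and 2 lower (47.6% called, against 16.9% of all tested genes). Slc5a10, which takes up mannose and fructose, averaged 249 ± 48.2 CPM in Female WT and 169.9 ± 10.5 CPM in Male WT kidneys (0.55). Slc5a1, the glucose carrier SGLT1 of S3, rose by 0.50, Slc13a2, which takes up citrate, by 0.57, and the monocarboxylate carriers Slc16a4 and Slc16a7 by 0.66 and 0.40. Slc5a8, the sodium-coupled lactate carrier, went against them, with 73.4, 60.3, 99.7, 70.3 and 74.3 CPM in Female WT libraries 1 to 5, against 220.0, 191, 236, 202 and 165 CPM in Male WT libraries 1 to 5. Its log2 difference was -1.42 (adjusted p = 8.96e-08), and no female library reached a male one. Without Female WT library 1, 1 of this list was lower.

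Of 16 tested carriers and enzymes of phosphate, sulfate, bicarbonate and protons, 3 were lower and 1 was higher (25%, against 16.9% of all tested genes). Without Female WT library 2 there were 2 higher. Slc34a1, the main phosphate carrier of the brush border, had 4242, 4144, 4385, 4903 and 4933 CPM in Female WT libraries 1 to 5, against 6643, 6244, 6267, 6308 and 6597 CPM in Male WT libraries 1 to 5. The gap was narrow but free of overlap (-0.50, SE 0.1, adjusted p = 0.000486). Car4, the membrane carbonic anhydrase that serves bicarbonate uptake, fell by 0.98 and Slc26a1, a sulfate exchanger, by 0.72, while Slc9a8, the sodium-proton exchanger NHE8, rose by 0.62. Slc17a1 and Slc17a3 are luminal carriers linked to urate export. Slc17a1 averaged 321 CPM in Female WT and 628 CPM in Male WT kidneys (-0.97), and Slc17a3 averaged 364 CPM in Female WT and 804 CPM in Male WT kidneys (-1.14). Their neighbour Slc17a2 had 17.9, 12.3, 22.5, 11.5 and 13.7 CPM in Female WT libraries 1 to 5, against 0.151, 0.472, 0.339, 0.458 and 0.294 CPM in Male WT libraries 1 to 5, a difference of 5.51 in the other direction.

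Zinc transporters had 2 of 20 tested members higher and 4 lower (30% called, against 16.9% of all tested genes). Slc30a2, which loads zinc into vesicles, averaged 32.8 ± 7.28 CPM in Female WT and 91.5 ± 14.6 CPM in Male WT kidneys (-1.48), and Slc39a5, a zinc importer, averaged 82.9 ± 15.3 CPM in Female WT and 39.9 ± 8.1 CPM in Male WT kidneys (1.06). The zinc exporters Slc30a1 and Slc30a5 both fell by 0.53. Among 39 mitochondrial Slc25 carriers 8 were lower and 1 was higher (23.1% called), all by less than 1 on the log2 scale. They included Slc25a37, the mitochondrial iron importer, at 24 CPM in Female WT and 32.8 CPM in Male WT kidneys, Slc25a21, a carrier of lysine breakdown products, at 16.1 CPM in Female WT and 26.2 CPM in Male WT kidneys, and on the other side Slc25a24, an ATP-Mg and phosphate carrier, at 5.49 CPM in Female WT and 3.26 CPM in Male WT kidneys. By contrast the nuclear-encoded respiratory chain had 2 of 87 tested members higher and 1 lower, against 16.9% of all tested genes. The lower ones numbered 9 in the fit without Male Q library 4 and Female Q library 5, and 14 in a fit of the 10 WT libraries alone. The lower Slc25 carriers numbered 5 without Female WT library 1, 3 or 5, and the higher ones 2 without Male WT library 4 or Female WT library 5.

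Of 56 potassium channel genes 7 were higher and 3 lower, which at 17.9% is near the 16.9% of all tested genes. Of 16 claudins 4 were higher and 1 lower (31.25% called). Kcnk1, a leak channel of the tubule, had 168, 124, 182, 140.1 and 149 CPM in Female WT libraries 1 to 5, against 44.4, 44.4, 50.2, 57.1 and 57.8 CPM in Male WT libraries 1 to 5 (1.59, adjusted p = 1.51e-11). Kcnk5, an acid-sensing leak channel of the proximal tubule that goes with bicarbonate uptake, averaged 68.8 ± 12.3 CPM in Female WT and 130.2 ± 25.3 CPM in Male WT kidneys (-0.92), and Kcnj15, a blood-side channel that assembles with Kcnj16, averaged 442 ± 14.5 CPM in Female WT and 728 ± 97 CPM in Male WT kidneys (-0.72). Cldn4, Cldn7 and Cldn8, tight junction proteins of the collecting system, rose by 0.67, 0.65 and 0.45. The call of Cldn8 was lost without Male WT library 1 or 5 (adjusted p = 0.0592 and 0.0501), and without either of them 2 claudins were higher. Of 9 tested aquaporins, Aqp4, the blood-side water channel of principal cells, was higher with 73, 77.1, 78.9, 69.2 and 68.5 CPM in Female WT libraries 1 to 5, against 21.3, 29, 21, 54.4 and 45.5 CPM in Male WT libraries 1 to 5 (1.10, adjusted p = 0.00458), and Aqp8, at under 2 CPM in the mean of either group, was lower by 1.61. Of the tested aquaporins 22.2% were called, against 16.9% of all tested genes. Without Female WT library 2 or Male WT library 3 there were 2 higher aquaporins, and 3 without Male WT library 2.

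Enzymes that oxidise and conjugate drugs, steroids and fatty acids held many calls. Of 24 tested Cyp2 cytochromes 9 were lower and 4 higher, and of 14 Cyp4 cytochromes 5 were lower and 3 higher. That is 54.2% and 57.1% called, against 16.9% of all tested genes. Cyp4b1, which hydroxylates fatty acids and activates furans, had 97.1, 202, 127, 128 and 124 CPM in Female WT libraries 1 to 5, against 3879.7, 3481, 2519, 4107 and 3435 CPM in Male WT libraries 1 to 5. Cyp2e1, which oxidises ethanol, acetaminophen and small solvents, had 61, 57.8, 69.6, 69.8 and 60.9 CPM in Female WT libraries 1 to 5, against 1439.95, 1267, 1008, 1404 and 1166 CPM in Male WT libraries 1 to 5. Their log2 differences were -4.68 and -4.30 (adjusted p = 1.12e-18 and 4.88e-17), and the lowest male library held over 10 times the highest female one in both. Cyp2j13, a relative of the arachidonate epoxygenase Cyp2j5, averaged 1.46 ± 0.173 CPM in Female WT and 269 ± 33.8 CPM in Male WT kidneys, while the far more abundant Cyp2j5 averaged 1127 ± 73.3 CPM in Female WT and 1849 ± 159 CPM in Male WT kidneys, a difference of -0.71. In the Cyp4a group, Cyp4a12a, which makes 20-HETE from arachidonate in the mouse, had 2.14, 4.17, 1.59, 2.05 and 1.35 CPM in Female WT libraries 1 to 5, against 106, 156, 39.7, 238 and 91.8 CPM in Male WT libraries 1 to 5, and Cyp4a14, a fatty acid hydroxylase, had 545, 435, 654, 454 and 411 CPM in Female WT libraries 1 to 5, against 32.6, 182, 79.8, 30.5 and 75.9 CPM in Male WT libraries 1 to 5. They moved in opposite directions, -5.79 and 2.64 (adjusted p = 9.49e-11 and 0.00133), and the males varied widely in both. Of the words of Cyp4a12a 48.9% are shared with other genes. Cyp2d9, a testosterone hydroxylase, fell by 3.15, while Cyp2d26 rose by 1.12, and Cyp2c23, an arachidonate epoxygenase, rose by 1.2.

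Glucuronosyltransferases had 13 of 14 tested members called (92.9%, against 16.9% of all tested genes), 5 higher and 8 lower. Several of these calls rested on low levels. Ugt1a1 averaged 2.61 CPM in Female WT and 0.0919 CPM in Male WT kidneys. Ugt2a3 averaged 0.333 CPM in Female WT and 1.43 CPM in Male WT kidneys. Ugt1a2 had 501, 404, 484, 613 and 574 CPM in Female WT libraries 1 to 5, against 1.71, 3.24, 2.9, 1.18 and 1.88 CPM in Male WT libraries 1 to 5. It was the largest rise in Female WT kidneys among called genes with at least 5 CPM in either group (7.87, SE 0.293, adjusted p = 5.59e-18), and 63.7% of its words stand in other transcripts, since Ugt1a genes share their downstream exons. Ugt2b37 and Ugt2b38 conjugate steroids and xenobiotics. Ugt2b37 averaged 1.47 ± 0.41 CPM in Female WT and 133 ± 45.7 CPM in Male WT kidneys (-6.51). Ugt2b38 averaged 68 ± 10.6 CPM in Female WT and 802 ± 178 CPM in Male WT kidneys (-3.56), with 37.4% of its words shared. Ugt2b34 rose by 1.39, and Ugt8a, which makes galactosylceramide, averaged 6.63 ± 1.72 CPM in Female WT and 68.3 ± 12.6 CPM in Male WT kidneys (-3.37).

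Carboxylesterases and the Nat8 acetyltransferases were called in 1 direction. Of 10 tested carboxylesterases 6 were lower and 0 higher, and of 9 Nat8 genes 4 were lower and 0 higher. That is 60% and 44.4%, against 8.42% of all tested genes lower. Without Male WT library 4, 1 carboxylesterase was higher. Ces1f, an ester and lipid hydrolase, had 109.8, 79.9, 161, 95.5 and 101 CPM in Female WT libraries 1 to 5, against 845, 659, 812, 933 and 668 CPM in Male WT libraries 1 to 5 (-2.84, adjusted p = 9.23e-12). Ces1g averaged 3.06 CPM in Female WT and 47.1 CPM in Male WT kidneys and Ces2c, of which 36.1% of the words are shared, 115 CPM in Female WT and 405 CPM in Male WT kidneys. Nat8, which acetylates cysteine conjugates to mercapturates, averaged 54.3 ± 3.94 CPM in Female WT and 227 ± 42 CPM in Male WT kidneys (-2.06), and Nat8f2 averaged 11.6 ± 0.813 CPM in Female WT and 63.8 ± 8.3 CPM in Male WT kidneys (-2.45). Acy3, which removes the acetyl group from mercapturates, was lower as well, with 701 ± 97.5 CPM in Female WT and 2659 ± 268 CPM in Male WT kidneys (-1.92). Fmo5, a flavin monooxygenase, averaged 14.6 ± 1.78 CPM in Female WT and 137 ± 31.8 CPM in Male WT kidneys (-3.23). The glutathione transferases stood on the other side, with 6 of 24 tested members higher and 3 lower (37.5% called, against 16.9% of all tested genes). Gsta4, which detoxifies hydroxynonenal, had 204, 287, 204, 233 and 244 CPM in Female WT libraries 1 to 5, against 28.9, 57.8, 39.8, 34.5 and 34 CPM in Male WT libraries 1 to 5 (2.59, adjusted p = 2.89e-10). Gsta2 averaged 614 ± 54.3 CPM in Female WT and 223 ± 40.5 CPM in Male WT kidneys (1.46), with 49.8% of its words shared, and Gsto1 and Mgst1 rose by 0.92 and 0.56.

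**Figure D3:**
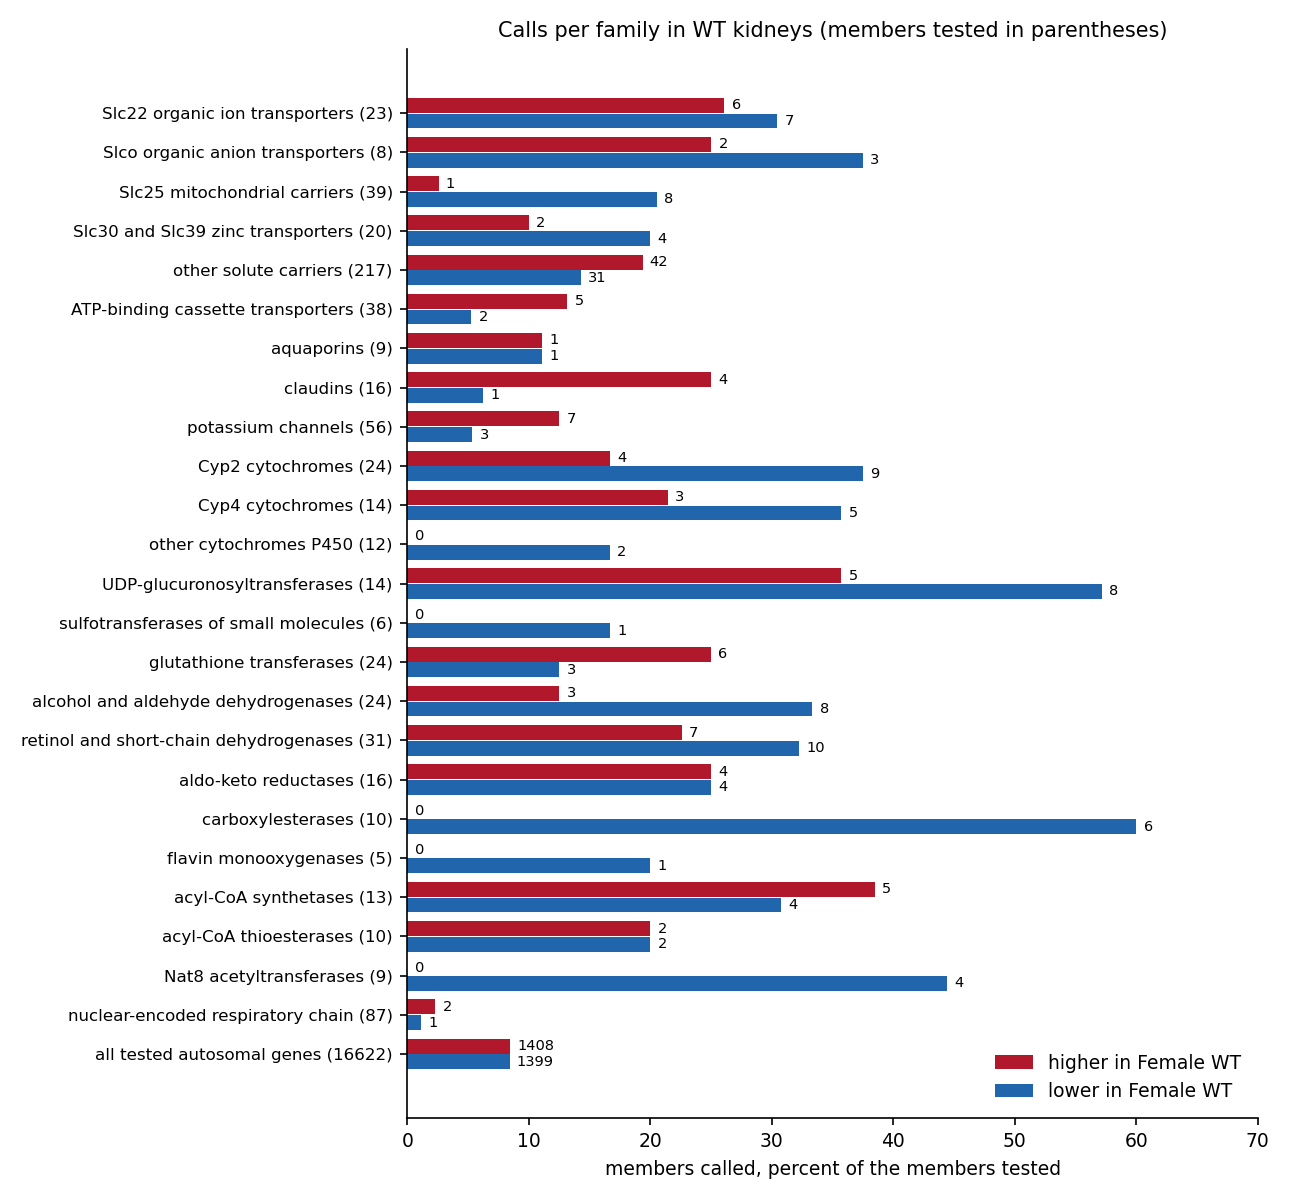
Percent of the tested members of each symbol family called higher or lower in Female WT kidneys (horizontal axis), with the number of calls at the end of each bar, the members tested in parentheses and all 16622 tested autosomal genes in the last row. UDP-glucuronosyltransferases had 5 of 14 higher and 8 lower, carboxylesterases 6 of 10 lower, and the nuclear-encoded respiratory chain 2 of 87 higher and 1 lower.

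Acyl-CoA synthetases split within the family, with 5 of 13 tested members higher and 4 lower (69.2% called, against 16.9% of all tested genes). The medium-chain enzyme Acsm2 had 1268, 1267, 1384, 1315 and 1284 CPM in Female WT libraries 1 to 5, against 5452, 4467, 5080.3, 5643 and 4339.7 CPM in Male WT libraries 1 to 5, and its neighbour Acsm3 had 8.94, 2.67, 5.33, 5.15 and 6.27 CPM in Female WT libraries 1 to 5, against 911, 716, 821, 675 and 407 CPM in Male WT libraries 1 to 5. They fell by 1.94 and 6.97 (adjusted p = 8.82e-15 and 8.12e-12), while Acsm1, between them on chromosome 7, rose and averaged 363 ± 77.9 CPM in Female WT and 211 ± 18.9 CPM in Male WT kidneys (0.79). Acsl1, the long-chain enzyme, averaged 451 ± 49.6 CPM in Female WT and 236 ± 17.2 CPM in Male WT kidneys (0.94). The acetate-activating pair went apart, with the mitochondrial Acss1 higher by 0.54 and the cytosolic Acss2 lower by 0.94. In the list of fatty acid oxidation and peroxisomes 9 of 23 tested members were lower and 1 was higher (43.5% called). There were 2 higher without Male WT library 3 and 3 without Male WT library 2. Under upper-quartile scaling 7 were lower and 4 higher. Crot, which hands shortened acyl groups on to carnitine, had 264, 181, 291, 208 and 219 CPM in Female WT libraries 1 to 5, against 656, 534, 703, 554 and 503 CPM in Male WT libraries 1 to 5 (-1.34, adjusted p = 1.87e-06). Acox3, an oxidase of peroxisomal fatty acid breakdown, fell by 1.41 and the mitochondrial Acads by 0.73, whereas Hadha, a subunit of the mitochondrial trifunctional protein, rose by 0.44. Cholesterol synthesis and uptake had 5 of 16 tested members lower and 0 higher (31.25%, against 8.42% of all tested genes lower). Idi1 averaged 18.3 CPM in Female WT and 70.9 CPM in Male WT kidneys (-1.95). Hmgcs1 averaged 258 CPM in Female WT and 448 CPM in Male WT kidneys (-0.80), and Mvd and Sqle fell by 0.66 and 0.41. The call of Sqle was lost without Female WT library 2 (adjusted p = 0.0531) and without Male WT library 2 (adjusted p = 0.0598), and 1 member was higher without Male WT library 3.

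Steroid metabolism had 12 of 20 tested members lower and 3 higher (75% called, against 16.9% of all tested genes). Its median was -0.58 against 0.03 over all tested autosomal genes. Cyp7b1, which hydroxylates oxysterols and androgen metabolites, had 3.34, 2.48, 3.19, 2.98 and 1.66 CPM in Female WT libraries 1 to 5, against 126, 201, 135, 126 and 117 CPM in Male WT libraries 1 to 5 (-5.70, adjusted p = 4.1e-16). Hsd17b11, which oxidises androgen metabolites and sits on lipid droplets, averaged 129 ± 6.87 CPM in Female WT and 399 ± 79.4 CPM in Male WT kidneys (-1.62). Hsd17b2, Hsd11b1 and Srd5a1, which inactivate oestradiol, regenerate corticosterone and reduce testosterone, fell by 1.85, 1.42 and 1.15, and Hsd3b2, of which 25.1% of the words are shared, fell by 1.72. Akr1c18, the enzyme that inactivates progesterone, was among the 3 that rose, with 304, 52.3, 421, 104 and 145 CPM in Female WT libraries 1 to 5, against 22, 28.9, 30.1, 16.1 and 6.93 CPM in Male WT libraries 1 to 5. The females varied widely and the groups did not overlap (3.30, adjusted p = 0.000416). Hsd17b14 rose by 1.99 and Hsd11b2, which protects the mineralocorticoid receptor from corticosterone in the distal nephron, by 0.32, a call lost without Male WT library 1 (adjusted p = 0.0582).

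Retinoid metabolism had 5 of 19 tested members higher and 5 lower (52.6% called, against 16.9% of all tested genes). Adh1 and Rdh10 oxidise retinol. Adh1 averaged 153 CPM in Female WT and 569 CPM in Male WT kidneys (-1.90), and Rdh10 averaged 55.6 CPM in Female WT and 106.6 CPM in Male WT kidneys (-0.94). Aldh1a2, which makes retinoic acid, averaged 10.7 CPM in Female WT and 3.68 CPM in Male WT kidneys, and Rdh11 averaged 24.6 CPM in Female WT and 15.5 CPM in Male WT kidneys, differences of 1.55 and 0.67. Rdh16f2, of the retinol dehydrogenase 16 family, had 573, 476, 727, 558 and 568 CPM in Female WT libraries 1 to 5, against 72.9, 75.8, 129, 97.5 and 118 CPM in Male WT libraries 1 to 5 (2.55, adjusted p = 1.54e-08).

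Amino acid synthesis and breakdown gave 10 higher and 7 lower calls among 28 tested enzymes (60.7%, against 16.9% of all tested genes). Arginase Arg2 and Oat, which lead from arginine through ornithine to glutamate, both rose, with 407, 348, 473, 353 and 381 CPM in Female WT libraries 1 to 5, against 153, 151, 169.6, 155 and 158 CPM in Male WT libraries 1 to 5 for Oat. Arg2 averaged 21.1 ± 3.59 CPM in Female WT and 3.28 ± 0.476 CPM in Male WT kidneys, and the differences were 2.68 and 1.32 (adjusted p = 5.15e-13 and 4.89e-11). Kynu, which splits kynurenine, averaged 59.8 ± 3.94 CPM in Female WT and 9.31 ± 3.08 CPM in Male WT kidneys (2.68), and Kyat1, which transaminates it, averaged 45.6 ± 2.77 CPM in Female WT and 91.9 ± 19.2 CPM in Male WT kidneys (-1.01). Of the one-carbon enzymes, Bhmt averaged 49.5 CPM in Female WT and 4.54 CPM in Male WT kidneys (3.44), with 25.3% of its words shared, and Shmt1 averaged 115 CPM in Female WT and 63.2 CPM in Male WT kidneys (0.87). Ass1, the step into arginine synthesis, averaged 2609 ± 501 CPM in Female WT and 3702 ± 209.6 CPM in Male WT kidneys (-0.50), with 38.6% of its words shared. Gluconeogenesis and ammoniagenesis had 1 higher and 1 lower call among 13, which at 15.4% is near the 16.9% of all tested genes. The higher one was Fbp2, a fructose bisphosphatase, at 28.4 CPM in Female WT and 14.1 CPM in Male WT kidneys. The lower one was Pcx, pyruvate carboxylase, at 428 CPM in Female WT and 716 CPM in Male WT kidneys. Without Female WT library 1 or 2 there were 2 higher. Pck1, the enzyme that commits to gluconeogenesis, was not called, with 3056 ± 753 CPM in Female WT and 2049 ± 526 CPM in Male WT kidneys (log2 difference 0.58, 95% interval 0.11 to 1.05, adjusted p = 0.103). In polyamine metabolism Odc1 and its inhibitor Oaz2 were lower and Paox, with 25.9% of its words shared, was higher among 9 tested (33.3% called). Oaz2 averaged 147 CPM in Female WT and 176 CPM in Male WT kidneys and lost its call under upper-quartile scaling (adjusted p = 0.0695), and Paox, at 11.1 CPM in Female WT and 8.33 CPM in Male WT kidneys, lost its own without any 1 of 8 libraries, all but Male WT library 3 and Female WT library 5 (adjusted p = 0.0538 to 0.157).

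Peptidases and lysosomal proteases had 3 of 17 tested members higher and 5 lower (47.1% called, against 16.9% of all tested genes). The cytosolic dipeptidase Cndp2 had 422, 327, 586, 282 and 323 CPM in Female WT libraries 1 to 5, against 2147, 2097, 1747, 1868 and 1347 CPM in Male WT libraries 1 to 5 (-2.25, adjusted p = 1.69e-09). Ggt1, which cleaves glutathione at the brush border, averaged 823 ± 131 CPM in Female WT and 1400.1 ± 107.3 CPM in Male WT kidneys (-0.77), and Mep1a, a subunit of meprin, averaged 1129.9 ± 161 CPM in Female WT and 1752 ± 133 CPM in Male WT kidneys (-0.63). Napsa, an aspartic protease of proximal tubule lysosomes, went the other way with 2421 ± 199 CPM in Female WT and 1436 ± 103 CPM in Male WT kidneys (0.75), as did Mme, neprilysin, with 246 ± 15.7 CPM in Female WT and 140.4 ± 20.6 CPM in Male WT kidneys (0.81). Serpins, inhibitors of serine proteases and their relatives, had 8 of 24 tested members higher and 5 lower (54.2% called). But without Female WT library 2 there were 3 higher and 4 lower. Without Male WT library 1, 3 were higher, and without Male WT library 5, 5 were. Serpinf2, the inhibitor of plasmin, averaged 80.3 ± 22.3 CPM in Female WT and 367 ± 39.3 CPM in Male WT kidneys (-2.19), and Serpina1f averaged 257 ± 37.1 CPM in Female WT and 139 ± 20.4 CPM in Male WT kidneys (0.88). The 12 kallikreins tested held 0 calls by edgeR or DESeq2, and 0 had an unadjusted p under 0.05. Klk1 averaged 1967 CPM in Female WT and 1597 CPM in Male WT kidneys (log2 difference 0.30, adjusted p = 0.257). All the others averaged at most 3.4 CPM in either group, where differences are hard to call.

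Among 24 hormone receptors and regulators 4 were higher and 6 lower (41.7% called, against 16.9% of all tested genes). Prlr, the prolactin receptor, had 251, 170.3, 236, 210.3 and 209.6 CPM in Female WT libraries 1 to 5, against 19.7, 4.54, 24.4, 23 and 39.4 CPM in Male WT libraries 1 to 5. Its log2 difference was 3.28 (adjusted p = 6.1e-06), and Male WT library 2 was far below the other males. Nr1i2, the xenobiotic sensor PXR, averaged 13 ± 1.74 CPM in Female WT and 6.83 ± 1.84 CPM in Male WT kidneys (0.93), and Igf1 averaged 13.5 ± 2.11 CPM in Female WT and 7.93 ± 2.12 CPM in Male WT kidneys (0.76). Esr1, the oestrogen receptor alpha, averaged 6.02 ± 1.53 CPM in Female WT and 11.9 ± 3.46 CPM in Male WT kidneys (-1.0). Igf1r, the receptor of IGF-1, Nr1h4, the bile acid sensor FXR, and Hnf4a, a factor that maintains the proximal tubule state, fell by 0.65, 0.78 and 0.39. Among the large changes outside the lists were those in Tmprss6, a serine protease that restrains hepcidin, at 9.61 CPM in Female WT and 0.0994 CPM in Male WT kidneys, in Pzp, a broad protease inhibitor, at 0.456 CPM in Female WT and 101 CPM in Male WT kidneys, and in Ccdc170, a coiled-coil gene beside Esr1, at 16.2 CPM in Female WT and 1.61 CPM in Male WT kidneys. Mpped1 and Apoh, a phospholipid-binding plasma protein, had 2 and 6 counts in all Female WT libraries together, against 836 and 968 in the Male WT libraries.

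The nephron segments were then compared through lists of marker genes. In a bulk kidney library, a change in the share of a segment's cells and a change in RNA per cell cannot be told apart. Of 16 markers shared by all of the proximal tubule 4 were lower (25%, against 8.42% of all tested genes). None were higher (1 without Female WT library 2), and the median of the 16 markers was -0.09. Their summed level was 27780 to 31354 CPM in the Female WT libraries and 31241 to 32963 CPM in the Male WT libraries. Slc27a2, a fatty acid transporter, fell by 0.47, next to Ass1, Slc34a1 and Hnf4a described above, and Cubn, a receptor of protein uptake, was not called (0.38, adjusted p = 0.0734). S1 markers had 2 of 10 higher and 0 lower, against 8.47% of all tested genes higher. They were Slc7a8 and Gatm, which makes guanidinoacetate for creatine (0.41). The call of Gatm was lost without any 1 of Female WT libraries 2, 4 and 5 and Male WT libraries 1 and 5 (adjusted p = 0.0605 to 0.104).

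Of all called markers of a segment, those that changed by more than 2 on the log2 scale, Cyp2e1, Slc7a13, Slc7a12 and Cyp7b1, were in the lists of S2 and S3. Of 7 S2 markers 4 were lower, Cyp2e1, Slc22a6, Slc22a12 and Slc22a2, and 1 was higher, Fabp1, a fatty acid binding protein, at 3.48 CPM in Female WT and 0.918 CPM in Male WT kidneys. Their sum was 1942 to 2471 CPM in the Female WT libraries, against 4681 to 5167 CPM in the Male WT libraries. Of 13 S3 markers 5 were lower and 5 higher. Slc7a13, Cyp7b1, Acy3, Atp11a and Ggt1 fell, with Atp11a, a lipid flippase, at 337 ± 66.5 CPM in Female WT and 1159 ± 228 CPM in Male WT kidneys (-1.78). Slc7a12, Slc22a19, Slc22a13, Slc6a18 and Slc5a1 rose. The S3 sum was 3484 to 5256 CPM in the Female WT libraries and 6955 to 8476 CPM in the Male WT libraries, and Female WT library 3 had the highest sum of the females. Of the S2 and S3 markers 71.4% and 76.9% were called, against 16.9% of all tested genes. The lists were chosen with earlier results of these data known, so these shares cannot tell which segments differ most. The counts of both lists were the same without Female WT library 2. The sums differed by -1.14 in S2 and -0.98 in S3 on the log2 scale, and the S3 difference was -0.66 without its most abundant member. The median of the markers was -1.0 in S2 and -0.03 in S3, where 6 estimates were above 0 and 7 below. The S1 sum differed by 0.15, or by 0.05 without its most abundant member.

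Podocytes and every segment after the proximal tubule had higher and no lower calls in Female WT kidneys. The thick ascending limb had 5 of 17 markers higher and 0 lower (median 0.36), the distal convoluted tubule 3 of 13 (0.35), principal cells 6 of 12 (0.36), intercalated cells 5 of 17 (0.40), the thin limb and inner medulla 3 of 10 (0.55) and podocytes 7 of 12 (0.41), each with 0 lower, against 8.47% of all tested genes higher. These counts moved with single libraries. For the distal convoluted tubule 2 were higher without Female WT library 2, and the median of its markers was then 0.20 in place of 0.35. For podocytes 1 was higher without Female WT library 1 or Male WT library 4, 3 without Male WT library 2 or Female WT library 5, and 4 without Female WT library 2 or 4 or Male WT library 3. For the thick ascending limb 3 were higher without Male WT library 1 or 2 or Female WT library 3, 4 or 5. For principal cells 3 were higher without Male WT library 1. For intercalated cells 3 were higher without Male WT library 1 or 3 or Female WT library 2 or 3, while 9 were without Female WT library 1 and 8 without Male WT library 2. For the thin limb and inner medulla 1 was higher without Male WT library 1 or 5 or Female WT library 4 or 5, and 5 were without Male WT library 2. Sptssb, a small subunit of serine palmitoyltransferase, which starts sphingolipid synthesis, had the largest called difference of these lists and averaged 8.25 ± 1.66 CPM in Female WT and 3.39 ± 2.79 CPM in Male WT kidneys, with overlap (1.28, adjusted p = 0.0284). Its call was lost without any 1 of Female WT libraries 1, 4 and 5 and Male WT libraries 1, 4 and 5 (adjusted p = 0.0558 to 0.0811), in the fit of the 10 WT libraries alone (0.0765) and without the filter on low counts (0.0996). Kcnj1, the potassium channel ROMK, had 292, 331, 323, 332 and 322 CPM in Female WT libraries 1 to 5, against 189, 256, 246, 236 and 246 CPM in Male WT libraries 1 to 5 (0.45, adjusted p = 0.00168). Bsnd, a subunit of chloride channels, rose by 0.36. Klhl3, which controls the salt carrier of the distal convoluted tubule through Wnk kinases, averaged 66.3 ± 8.43 CPM in Female WT and 47.7 ± 4.17 CPM in Male WT kidneys (0.48), and that carrier, Slc12a3, was not called at 968 ± 178 CPM in Female WT and 752 ± 87.2 CPM in Male WT kidneys (adjusted p = 0.0828). In principal cells Hsd11b2, Gata3, Elf5 and Aqp4 rose together with Nr3c2, the mineralocorticoid receptor, and Scnn1b, a sodium channel subunit. The call of Nr3c2 was lost without Female WT library 2 (adjusted p = 0.0557). That of Scnn1b was lost without Female WT library 2 or 3 or Male WT library 1, 4 or 5 (adjusted p = 0.0604 to 0.115), and that of Elf5 without any 1 of the libraries other than Female WT 2 and 3 and Male WT 2 (adjusted p = 0.0519 to 0.0769). Aqp2, the vasopressin-regulated water channel, averaged 482 ± 146 CPM in Female WT and 396 ± 84.5 CPM in Male WT kidneys and was not called (0.29, adjusted p = 0.486). In intercalated cells the proton pump subunit Atp6v1b1 had 116, 145, 136, 119.5 and 114 CPM in Female WT libraries 1 to 5, against 88.6, 96.8, 92.3, 94.5 and 98.4 CPM in Male WT libraries 1 to 5 (0.42, adjusted p = 0.0012). Atp6v0d2 and the chloride-bicarbonate exchanger Slc26a4 rose by 0.44 and 0.32, the second with no call without Female WT library 3 (adjusted p = 0.0698). Among podocyte genes Podxl, which coats the foot processes, averaged 184 ± 7.59 CPM in Female WT and 147 ± 19.8 CPM in Male WT kidneys (0.33). The call of Podxl was lost without Female WT library 1 or 2 or Male WT library 2 or 4 (adjusted p = 0.0512 to 0.0768). Nphs1 and Wt1 each lost theirs without any 1 of 7 libraries, Female WT 2 among them (adjusted p = 0.0666 and 0.0571 without it).

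Of markers of cells outside the tubule, endothelium had 4 of 12 higher and stroma and smooth muscle 6 of 12, against 8.47% of all tested genes, with 0 lower in both. Macrophages had 2 of 10 higher (20%) and urothelium 1 of 8 (12.5%), with 0 lower in both. Their estimates were above 0 for 9 and 8 markers. Without Male WT library 1 or 4 or Female WT library 1, 2 endothelial markers were higher. Of the stromal markers 2 were higher without Male WT library 4 and 3 without Female WT library 1 or 3, and 3 urothelial markers were higher without Male WT library 2. Tek, an endothelial receptor, averaged 49.8 ± 4.23 CPM in Female WT and 35.5 ± 2.33 CPM in Male WT kidneys (0.49), and Rgs5, a pericyte gene, averaged 48.6 ± 3.47 CPM in Female WT and 31.6 ± 1.51 CPM in Male WT kidneys (0.62). The macrophage genes C1qc and Adgre1 lost their calls without Female WT library 2 (adjusted p = 0.327 and 0.123) and without Male WT library 1 or 3 (0.0629 to 0.109), and C1qc also without Female WT library 4 or Male WT library 2, 4 or 5. The summed macrophage level was 162 to 272 CPM in the Female WT libraries and 135 to 172 CPM in the Male WT libraries. The lists of lymphocytes (13 tested), adipocytes (8) and red cells (4) held 0 calls by edgeR or DESeq2, with 1, 0 and 0 genes at an unadjusted p under 0.05. Adipocyte markers summed to 57.2 to 269 CPM in the Female WT libraries and 40.7 to 129 CPM in the Male WT libraries, with a median log2 difference of 1.22, and 2 of the 6 adrenal cortex markers were at 0 in all 10 libraries. Over the 13 lists outside the proximal tubule, 42 of 148 markers were higher and 0 lower by edgeR, with an estimate above 0 for 136 and a median of 0.38. By DESeq2 0 were lower as well, and 0 had a lower estimate at an unadjusted p under 0.05. The count was 28 without Female WT library 2, 24 without Male WT library 4, 26 without Male WT library 1, 59 under upper-quartile scaling and 68 without Male Q library 4 and Female Q library 5. The genes called lower, which took a smaller part of all counts in Female WT kidneys as given above, moved with these rises, and their part in them was not tested. The median of the 148 markers was 0.36 to 0.42 under the settings that kept all 10 WT libraries.

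**Figure D4:**
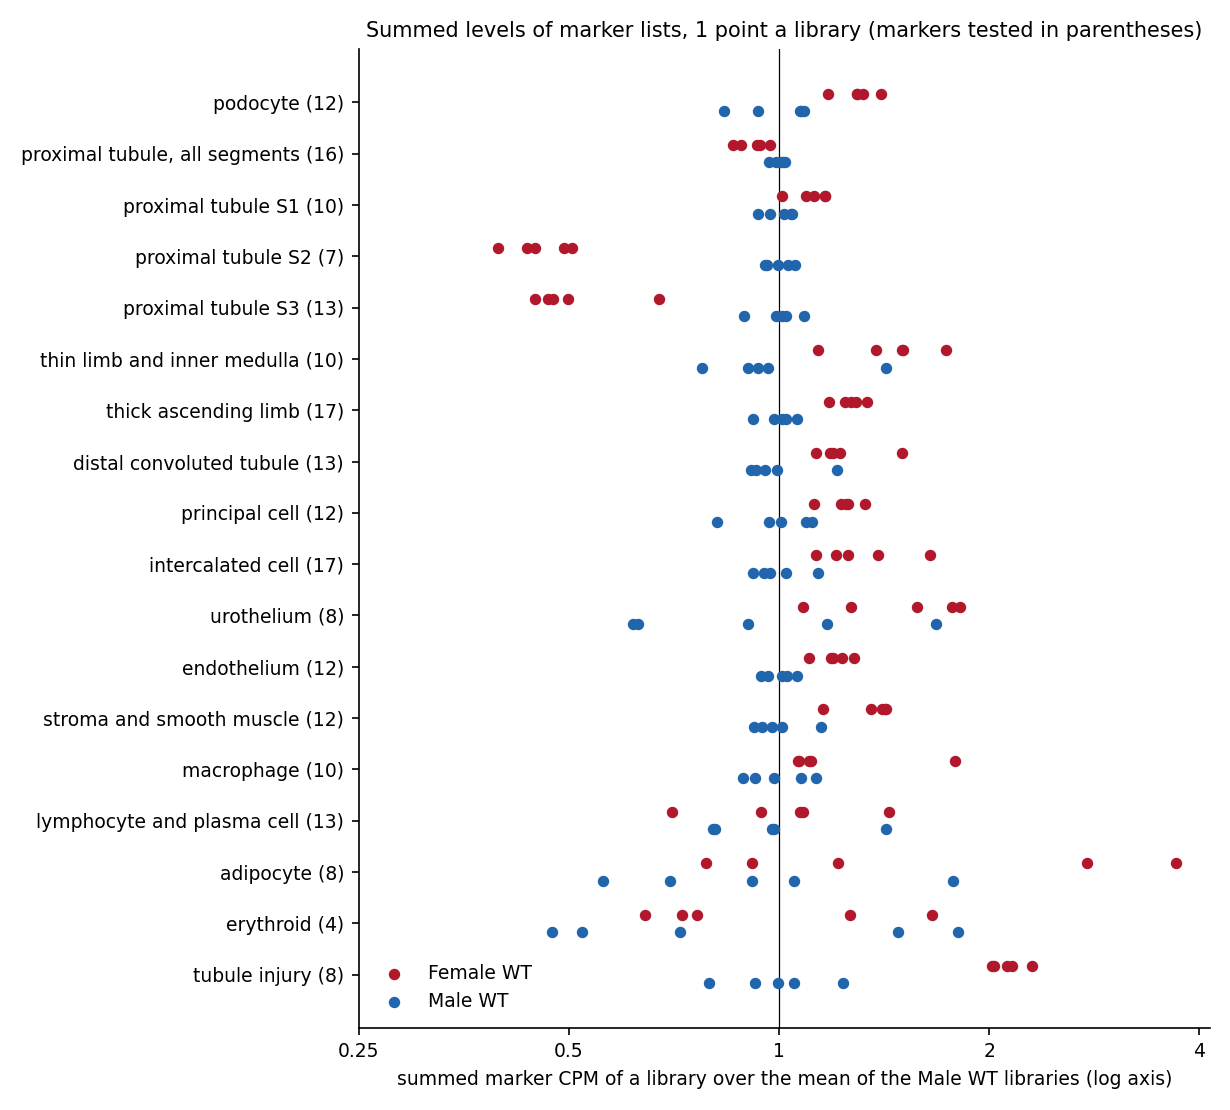
Summed CPM of the markers of each segment or cell type in each library, divided by the mean of the 5 Male WT libraries (log axis), 1 point a library with Female WT above Male WT in each row. The S2 and S3 sums of the Female WT libraries all lie left of the males, and those of the thick ascending limb all lie right of them.

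Of 8 markers of tubule injury 2 were higher and 1 lower (37.5% called, against 16.9% of all tested genes). There were 4 higher without Male WT library 2 and 2 lower without Female WT library 3. The sum of the 8 markers differed by 1.10 on the log2 scale, or by 0.33 without Spp1, its most abundant member. Spp1, osteopontin, a secreted protein of the loop of Henle and of injured tubules, had 1414, 1594, 1469, 1373 and 1419.5 CPM in Female WT libraries 1 to 5, against 459, 667, 645, 571 and 521 CPM in Male WT libraries 1 to 5 (1.34, adjusted p = 4.9e-11). Vcam1 averaged 14.2 ± 3.14 CPM in Female WT and 9.6 ± 0.964 CPM in Male WT kidneys (0.57), and Hmox1, which breaks down heme, averaged 17.1 ± 1.45 CPM in Female WT and 31.6 ± 8.28 CPM in Male WT kidneys (-0.88). Collagens had 10 of 34 tested members higher and 2 lower (35.3% called). Col3a1 averaged 55.6 ± 8.0 CPM in Female WT and 39.2 ± 6.18 CPM in Male WT kidneys (0.50), and Col6a6 averaged 0.275 ± 0.133 CPM in Female WT and 4.72 ± 1.68 CPM in Male WT kidneys (-4.07). Without Male WT library 4 there were 3 higher collagens and no call for Col3a1 (adjusted p = 0.0512). There were 4 without Female WT library 5, and 6 without Female WT library 1 or 3 or Male WT library 3.

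Opposite changes in neighbouring members of a family, as in the Slc22 genes, were counted over the families, with the solute carriers, ABC pumps and potassium channels split by the number or letter of their subfamily and without ribosomal and respiratory chain genes. Members whose starts lay under 1 Mb from the next tested member on the same chromosome were taken as a run. Of 37 runs of at least 3 tested members 28 held a call, and 11 of these held calls in both directions. How many such runs the shares of calls in these families would give by themselves was not tested. In the Slc22 run of chromosome 19, which holds 8 tested members, 3 were higher and 3 lower, Slc22a27 among them at 3.43. Slc22a27 averaged only 3.24 CPM in Female WT and 0.303 CPM in Male WT kidneys, and 29.9% of its words are shared. On chromosome 13, 9 aldo-keto reductases stood in a row with 4 higher and 3 lower, from Akr1c18 and Akr1c20 (2.72) to Akr1c14 and Akr1c21 (-1.08 and -0.70). Akr1c20 too was at low levels, 3.22 CPM in Female WT and 0.49 CPM in Male WT kidneys. In the run of Cyp4a genes and Cyp4b1 on chromosome 4, Cyp4a14 was the 1 rise among 7, and 4 fell, Cyp4b1 among them. In the Ugt1a run of chromosome 1, 4 of 6 were higher and 2 lower, and in the Ugt2 run of chromosome 5, Ugt2b34 at one end rose while the other 4 fell. Of these, Ugt1a1, Ugt1a6b, Ugt2a3 and Ugt2b5 averaged at most 3.8 CPM in either group. The Ugt1a members shared 52.1% to 79.8% of their words with other genes, and Ugt2b5 41.7%. Runs were described after their values had been seen.

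**Figure D5:**
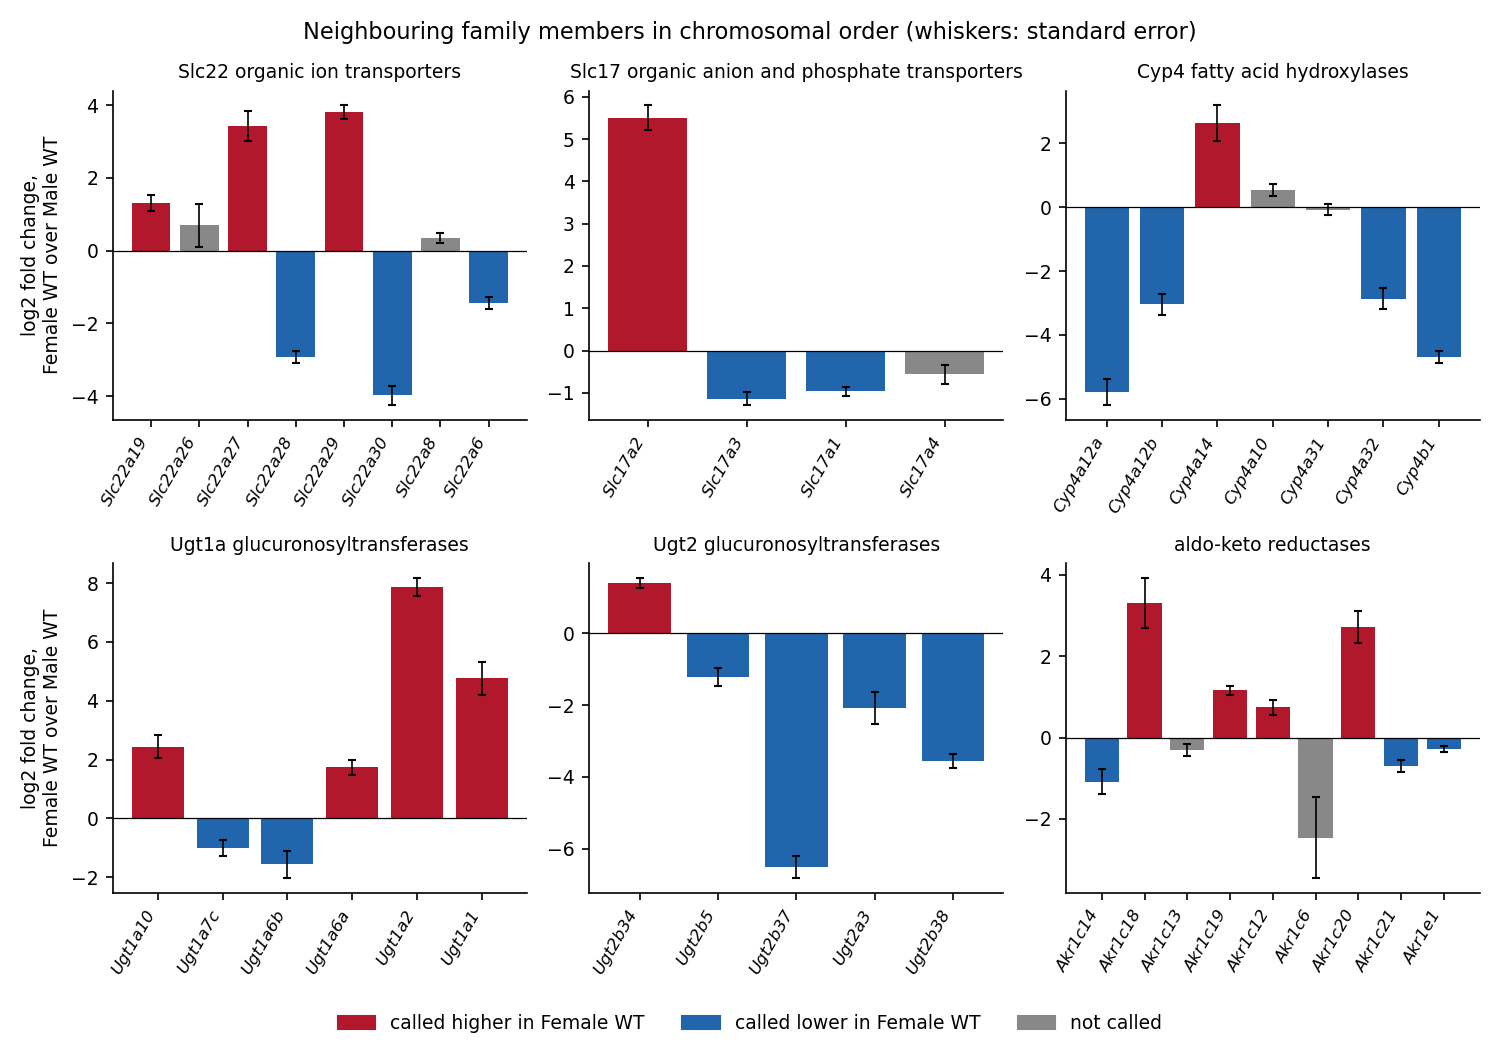
Log2 fold change of Female WT over Male WT (vertical axis) with its standard error for the tested members of 6 chromosomal runs, in their order on the chromosome in GENCODE M21. Slc22a29 stands above 0 between Slc22a28 and Slc22a30, which lie below it.

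The Q and R kidneys allowed the WT differences to be set beside those of other libraries. Between 5 Female Q and 5 Male Q libraries 23.4% of the tested autosomal genes were called, 3897 in all, and 2204 of them were called with the same sign in WT, which is 78.5% of the WT calls and 56.6% of the Q calls. Between 3 Female R and 5 Male R libraries 14.2% were called, 2368 in all, of which 1653 were called with the same sign in WT, or 58.9% of the WT calls and 69.8% of the R calls. No gene was called with opposite signs. In the tests of the difference itself, 0 autosomal genes were called for Q minus WT and 0 for R minus WT, by edgeR and by DESeq2. At an unadjusted p under 0.05 there were 514 and 475 such genes in edgeR and 681 and 647 in DESeq2. Slc22a29 differed by 4.35 in Q, 4.10 in R and 3.80 in WT kidneys, and Slc5a8 by -1.58, -1.11 and -1.42. Spp1 differed by 1.61, 1.35 and 1.34 and Kcnj1 by 0.49, 0.51 and 0.45 in the same order.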

How the data were processed

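RNA-seq of decapsulated mouse kidneys was given as raw counts per gene, which the authors made with featureCounts 2.0.1 on Ensembl release 107 (GRCm39), per the file headers, over exons of paired reads with no strand or multi-mapping option set, so overlapping antisense genes were not separated. Trim Galore 0.6.7, SAMtools 1.6, Subread 2.0.1 and DESeq2 1.38.3 are listed per the submitters' processing notes, and the aligner is not given in the sources used here. Groups were read from the titles.

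The deposited counts were tested with edgeR 4.0.16 (R 4.3.3, limma 3.58.1): TMM scaling, filterByExpr on the 6 groups, a robust quasi-likelihood fit of all 28 libraries with group means only, and Benjamini-Hochberg adjustment over all 17573 tested genes. CPM use the TMM library sizes. Intervals and n refer to libraries. Tables and figures were made with Python 3.11.15, pandas 2.3.3, NumPy 2.4.6, Biopython 1.88 and Matplotlib 3.10.9. Symbols and chromosomes came from GENCODE M21, an older build (GRCm38) that named 52125 of 56748 genes; the rest held 0.658% of the counts and were left out. The share of 50-base words in other genes' transcripts came from the same annotation. The fit was tested on simulated data.

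Members and lists were chosen with earlier results of these data known. Genes named were the 10 largest called changes in each direction at 5 CPM or more in a WT group, up to 6 members of each list or family by smallest p, the extremes of families called in both directions, and all called segment markers. Some genes that the rule takes in are not reported here. Kap and the neighbouring runs were chosen after values were seen, and so were members of a list named outside that rule. A permutation p for summed marker levels had been planned and is not given, since the members were chosen with results known. The same replicate numbers stand in both sexes. Deviations of same-numbered Female WT and Male WT libraries from their group means correlated at -0.04 to 0.06, and no label ties a number to a shared animal or day, so the numbers were not taken to pair libraries. No 2 libraries held identical counts. Alternatives were other scalings, no filter, the DESeq2 1.42.0 Wald test, the replicate block, the 10 WT libraries alone, and fits without single libraries.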

Additional observations from a re-analysis of the deposited data

Results flagged for a closer look

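In 387 sets of 5 values (each gene described, or each summed marker list, in Female WT or Male WT kidneys) the highest or lowest library was tested for a gap to the other 4 with Dixon's ratio, and 41 sets passed its 95% critical value. Chance flags about 1 in 20 such sets, genes that vary together count more than once, and no explanation is offered.

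Female WT library 3 lay above the other females in 12 of them, mostly proximal tubule genes. Slc22a19 was at 411 CPM in it and at 183 to 245 CPM in the others, and Ces2c at 222 against 74.2 to 103 CPM. Slc22a28 and Slc22a30 were at 37.5 and 25.2 CPM, nearer to the males than any other female library. Cubn was at 366, Acsm1 at 502, Acy3 at 873, Slc6a18 at 1278, Mep1a at 1416, Serpinf2 at 119 and Acox3 at 87.9 CPM. The summed S3 markers reached 5256 CPM in it, against 3484 to 3891 CPM.

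Female WT library 2, the library with 0.515 CPM of Xist, stood apart in 10 further sets. Cyp2d9 was at 40.7 CPM, against 15.6 to 20.8 CPM in the other females, and Cyp4a12a at 4.17 CPM, against 1.35 to 2.14 CPM. Both lay on the male side of the females. Acads at 161 CPM and Igf1r at 106 CPM were high, and Slc22a22 at 20.1 CPM and Slc30a2 at 20.1 CPM were low. C1qc at 40.6 CPM and the macrophage sum at 272 CPM were high, the sum against 162 to 170 CPM in the others. Slc12a3 at 1285 CPM and the distal convoluted tubule sum at 2754 CPM were high as well. The remaining females held 855 to 910 and 2069 to 2244 CPM of these.

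Male WT library 2 was set apart in 7 sets. Ugt2b37 was at 52.6 CPM in it, against 140 to 162 CPM in the other males, and Oaz2 at 153 CPM was low too. Cyp7b1 was high at 201 CPM, as were Kcnk5 at 175, Cldn7 at 23.8 and Elf5 at 6.43 CPM, and the distal convoluted tubule sum at 2219 CPM.

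The other 11 sets were spread over 6 libraries. Male WT library 3 held Ccdc170 at 1.02, Cldn8 at 103, Rgs5 at 34.2 and Slc13a2 at 48.8 CPM. Male WT library 1 held Atp11a at 1564 and Slc7a8 at 123 CPM. Male WT library 4 held Adh1 at 669.6 CPM and a lymphocyte sum of 42.7 CPM, and Male WT library 5 held Abcc4 at 58.9 CPM. Female WT library 1 was low in Kcnj1 at 292 CPM, and Female WT library 4 in the stromal sum at 320 CPM.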

How the results depend on the processing

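No named gene changed the sign of its log2 difference under any setting, while the balance of higher against lower calls turned in several. The 2807 calls became 4020 (1849 higher, 2171 lower) with the 10 WT libraries alone and 4189 (1926 higher, 2263 lower) without Male Q library 4 and Female Q library 5; the cause was not tested. They were 2822 (1362, 1460) with DESeq2 size factors, 3002 (1837, 1165) with upper-quartile factors, 2175 (1072, 1103) with no filter and 3109 (1483, 1626) by the DESeq2 Wald test. Leaving out single WT libraries gave 2275 to 2725 calls, 1081 to 1381 higher and 1176 to 1372 lower. With the replicate block there were 2685 (1337, 1348), of which 2612 were among the 2807; C1qc and Paox lost their calls under it. The 174 genes described gave 1672 of 1740 unchanged calls over the fits that left out 1 WT library, with 67 lost calls in 16 genes and 1 gained. Over the other settings 1193 of 1218 were unchanged, with 16 lost in Akr1c14, C1qc, Elf5, Hsd11b2, Oaz2, Paox, Podxl, Slc26a4, Sptssb and Wt1 and 9 gained in Cubn, Slc12a3 and Slc22a8. The differences of the contrast between Q or R and WT kidneys held 0 calls in every setting run, with a smallest adjusted p of 0.25.

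Depth limited low genes: Mpped1 and Apoh rested on 2 and 6 counts in Female WT kidneys, and fold changes of genes at so few counts depend on the prior count. The 5 libraries a group limited small differences, and the Female R group held 3.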
